A study of Mus musculus with 12 samples.

Results

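The MAP kinase feedback inhibitors are 10 genes whose products switch off the ERK, p38 and JNK kinases or the receptors and RAS proteins above them: Dusp1, Dusp2, Dusp4, Dusp5, Dusp6, Dusp10, Spry1, Spry2, Spred1 and Errfi1. They were chosen by name, with earlier results of these data known. All 10 were found by Ensembl identifier among the 55357 gene identifiers of each of 2 raw count tables. The liver table held 3 control and 3 esculetin libraries from male, wild-type C57BL6/J mice aged 8 to 9 weeks. These mice were gavaged daily for 7 days with 90 mg/kg of esculetin, a plant coumarin, or with the vehicle, 2.5% Tween-80. Both groups were fed 10% of their calories as fat on the first 4 days and 60% on the last 3. The study states that each liver sample pooled a pair of mice. The cell table held 3 control and 3 esculetin libraries of RAW264.7, a single mouse macrophage line grown in culture. All of these cells received 25 µg/mL of fluorescently labelled oxidized low-density lipoprotein (DIL-oxLDL) for 24 h, with 40 µg/mL of esculetin or with the solvent DMSO. Untreated cells without oxLDL were not analysed here.

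Growth factors and many stress signals activate RAS and then the kinase chain that leads through MEK to ERK, whereas p38 and JNK run in parallel and respond mainly to stress and inflammatory ligands. Active kinases induce their own inhibitors, so transcripts of these inhibitors usually follow pathway activity with a short delay and are read as a trace of it. The dual-specificity phosphatases (Dusp) remove phosphate from the kinases themselves: Dusp1 acts in the nucleus, mainly on p38 and JNK, Dusp2 and Dusp4 in the nucleus on several MAP kinases, Dusp5 in the nucleus on ERK, Dusp6 in the cytoplasm on ERK, and Dusp10 on p38 and JNK. Sprouty and Spred proteins act between the receptor and this chain, and Spred1 brings the RAS-inactivating protein neurofibromin to the membrane. Errfi1, also called Mig6, binds the EGF receptor family and blocks its kinase, and in liver it restrains EGF receptor signalling. Transcripts were measured here, whereas the phosphorylation of the kinases and the amounts of the inhibitor proteins were not analysed.

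The promoters of 4 members are shown because these genes were higher with esculetin in the cells and hold sequences that are bound by factors downstream of MAP kinases. Each line gives the 200 bases before the start of the transcript that the annotation marks as canonical, in GRCm39, 5′ to 3′ on the gene's strand. Dusp1 and Errfi1 also have annotated transcripts that begin further upstream, so these stretches lie inside the annotated genes, and the start used in these samples was not measured. Capitals mark the cAMP response element TGACGTCA (CRE, bound by CREB and ATF factors), its shorter core TGACG on either strand, and the CArG box, the site of serum response factor.

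Dusp1: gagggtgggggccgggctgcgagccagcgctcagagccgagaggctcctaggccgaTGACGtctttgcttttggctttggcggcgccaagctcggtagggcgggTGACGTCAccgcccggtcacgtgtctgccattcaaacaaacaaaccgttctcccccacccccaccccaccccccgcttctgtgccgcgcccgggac
Dusp4: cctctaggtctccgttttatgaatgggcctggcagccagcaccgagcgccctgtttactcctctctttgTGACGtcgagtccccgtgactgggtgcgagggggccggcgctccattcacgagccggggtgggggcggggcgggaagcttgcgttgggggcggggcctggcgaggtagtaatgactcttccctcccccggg
Dusp5: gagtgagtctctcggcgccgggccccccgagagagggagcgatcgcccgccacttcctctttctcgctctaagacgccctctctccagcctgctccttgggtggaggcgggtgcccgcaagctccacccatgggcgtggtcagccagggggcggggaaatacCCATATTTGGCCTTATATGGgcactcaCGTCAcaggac
Errfi1: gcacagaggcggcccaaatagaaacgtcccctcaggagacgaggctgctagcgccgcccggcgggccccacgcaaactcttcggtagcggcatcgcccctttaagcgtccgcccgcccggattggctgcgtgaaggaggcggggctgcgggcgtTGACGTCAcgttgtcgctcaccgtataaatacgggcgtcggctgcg

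These stretches lie at chr17:26727494-26727693 (minus strand) for Dusp1, chr8:35274242-35274441 (plus strand) for Dusp4, chr19:53517332-53517531 (plus strand) for Dusp5 and chr4:150939322-150939521 (plus strand) for Errfi1. A complete CRE stood 96 to 89 bases before the start of Dusp1 and 46 to 39 bases before that of Errfi1, so 2 of the 10 members had one within 250 bases, beside 1.69% of 21770 protein-coding promoters of the same length. The core TGACG, which also forms part of every complete CRE, was found in 5 of 10 members (Dusp1, Dusp4, Dusp5, Spry2 and Errfi1) and in 18.0% of all promoters. A pair of CArG boxes abutted each other 38 to 29 and 28 to 19 bases before the start of Dusp5, the only member with this motif, which 1.4% of promoters held. A match of the C/EBP motif TTGCNNAA was found in 1 of 10 members (Spry1), beside 9.34% of promoters, and the AP-1 motif TGANTCA and the ETS motif CCGGAAG were found in 0 of 10, beside 6.17% and 6.89%. Dusp6 and Spred1, also higher with esculetin in the cells, held none of these motifs, whereas Spry2, which held the core, did not change detectably there. All motifs were searched on both strands, and a match is a description of letters and not a measured binding site.

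The libraries held 14659876 to 20346460 counts in the liver and 13752842 to 20001959 in the cells. Levels are given as CPM, counts relative to library size, after scaling by trimmed mean of M-values, with the SD over 3 libraries per group, and levels of different genes are compared only as CPM per kb of exon. A gene was called changed at an adjusted p below 0.05 in edgeR's quasi-likelihood test, adjusted over all tested genes of that comparison. Of the liver genes tested, 0.0859% (11 of 12813) were called, and of the cell genes 57.7% (7667 of 13277), so a call in the cells was common for any gene. In the liver the first principal component (39.9% of the variance) set control library 1 apart, at -47.9 against -3.44 to 19.4 for the other 5, whereas in the cells it separated the treatments (77.9%). The 5 hepatocyte markers summed to 95793 to 125090 CPM in the liver libraries and to at most 0.878 CPM in the cells, where Ttr, Apoa1 and Cps1 had no counts. All 7 macrophage markers were detected in the cells.

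In control samples different members of the set led in the liver and in the macrophage line. Errfi1 led the liver with 127 CPM per kb of exon and made up 80.2% to 82.3% of the summed level of the 10 members per kb. Dusp1 (14.1 CPM per kb) and Dusp6 (11.1) followed, with overlapping ranges over the 3 libraries. The other 7 liver members stood at 0.104 (Spry2) to 1.05 CPM per kb (Spred1); neighbouring levels overlapped between Spred1 and Spry1, between Dusp10 and Dusp4 and between Dusp4 and Dusp5. In the control cells Spred1 came first at 78.5 CPM per kb, or 56.0% to 63.2% of the summed level, and Dusp4 second at 36.0. Dusp2, Dusp1 and Dusp6 lay close together at 4.14, 3.93 and 3.80 CPM per kb, with overlap between neighbours. They were followed by Errfi1 at 2.68, Dusp5 at 1.87 and Spry2 at 1.66, the last pair overlapping, then by Dusp10 at 0.593 and by Spry1, the lowest, at 0.0759. The tables were scaled separately, so the difference between liver and cells was not tested as a level. In mean control CPM, Errfi1 was 47.3 times as high in the liver as in the cells, whereas Spred1 was 75.03 times and Dusp4 65.8 times as high in the cells.

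**Figure D1:**
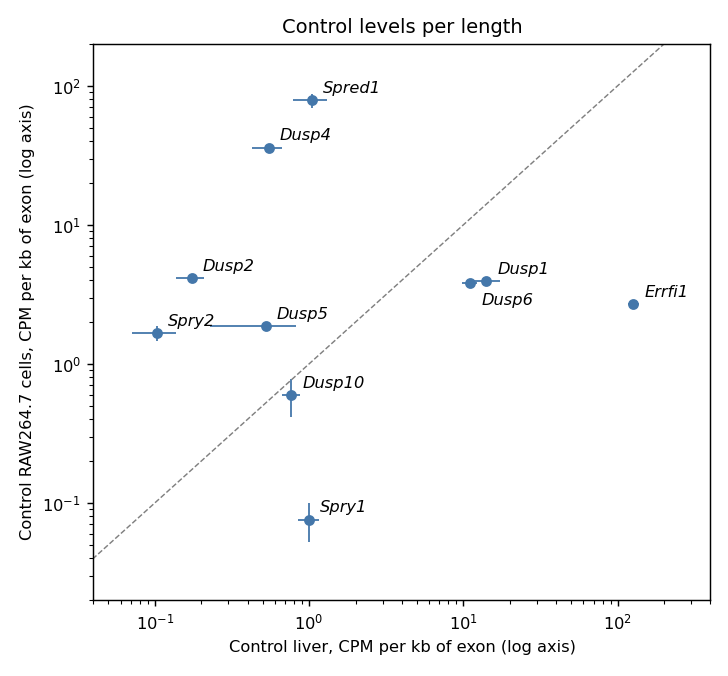
Mean control level of each member per kb of exon in the liver (horizontal, log axis) and in oxLDL-treated RAW264.7 cells (vertical, log axis); bars are the SD of 3 libraries and the dashed line marks equal values. Errfi1 stands far to the right (127 in the liver, 2.68 in the cells), and Spred1 and Dusp4 stand at the top (78.5 and 36.0 in the cells).

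In the RAW264.7 cells, esculetin raised 6 of the 9 tested members, and no member was called lower. Genes called higher made up 28.7% of all genes tested in the cells. The 6 were Dusp1, Dusp4, Dusp5, Dusp6, Spred1 and Errfi1, which include nuclear and cytoplasmic phosphatases, a RAS brake and a receptor inhibitor. The control and esculetin libraries did not overlap for 7 of 9 members, a property that 64.1% of all tested genes shared. The median log2 fold change of the 9 members was 0.89, beside -0.01 for all tested genes. Because the members and lists were chosen with earlier results known, such shares and medians describe them and do not test them.

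Among the phosphatases that act on ERK, Dusp5 changed most. It was measured at 4.41, 4.89 and 4.62 CPM in the control libraries and at 48.1, 65.4 and 86.7 CPM with esculetin. The esculetin libraries all lay far above the controls and spread more widely than these. The fold change was 14.4 (log2 3.85, SE 0.21, edgeR adjusted p = 1.55e-07). Dusp5 thereby rose from 1.26% to 1.53% of the members' summed level per kb to 7.77% to 12.6%.

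Dusp6, the cytoplasmic ERK phosphatase, stood at 13.7, 12.2 and 12.7 CPM in control cells and at 28.0, 33.3 and 50.1 CPM with esculetin. No esculetin library reached down to the controls, and the highest of them stood clear of the other two. The fold change was 2.89 (log2 1.53, SE 0.19, edgeR adjusted p = 4.56e-05). Dusp4, whose control level was the second highest per kb, was measured at 96.8, 105.6 and 108 CPM in the controls and at 133, 153 and 174 CPM with esculetin. This separation was complete but smaller than that of the other called phosphatases. Its fold change of 1.48 (log2 0.57, SE 0.10, edgeR adjusted p = 0.000697) lay just below the 1.5-fold limit that the study's own criterion sets.

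Dusp1, which favours p38 and JNK, was measured at 12.1, 13.5 and 13.6 CPM in control cells and at 39.5, 32.0 and 42.8 CPM with esculetin, again without overlap. The fold change was 2.92 (log2 1.55, SE 0.13, edgeR adjusted p = 3.16e-06). Dusp10, the other phosphatase of p38 and JNK, did not share this pattern. Its levels were 2.49, 4.68 and 3.65 CPM in the controls and 2.34, 5.04 and 1.73 CPM with esculetin, so that the lowest and highest values both came from the esculetin group. The log2 fold change was -0.26 with a 95% interval from -1.09 to 0.57 (edgeR adjusted p = 0.583), an interval wide enough to hold a change in either direction.

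Dusp2, an inducible nuclear phosphatase of immune cells, pointed the other way from its called relatives. It was measured at 8.55, 8.44 and 9.39 CPM in the controls and at 7.03, 7.63 and 4.74 CPM with esculetin. Each esculetin library lay below each control, but the log2 fold change of -0.45 (SE 0.19) missed the threshold (edgeR adjusted p = 0.0621). This call depended on the processing, with adjusted p-values between 0.0368 and 0.193 over the alternatives.

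Above the kinases, Spred1 was the most abundant member of the set in the cells and was measured at 692, 571 and 564 CPM in the controls and at 1172, 1127 and 1097 CPM with esculetin. The esculetin libraries agreed closely with each other and all exceeded the controls. The fold change was 1.86 (log2 0.89, SE 0.10, edgeR adjusted p = 2.13e-05). Errfi1, the EGF receptor inhibitor, went from 15.4, 16.5 and 15.7 CPM to 43.0, 48.9 and 56.0 CPM, with a wide gap between the groups. Its fold change was 3.11 (log2 1.64, SE 0.12, edgeR adjusted p = 1.14e-06).

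Of the Sprouty genes, neither was called. Spry2 stood at 8.55, 7.48 and 9.63 CPM in control cells and at 8.64, 8.52 and 8.48 CPM with esculetin, the latter inside the range of the former. The log2 fold change was -0.0032 with a 95% interval from -0.34 to 0.33 (edgeR adjusted p = 0.987). Spry1 was barely detected, with 9, 7 and 5 counts in the controls and 5, 2 and 3 counts with esculetin, and it did not pass the filter on low counts. Its change was not detectable at this depth.

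Added up per kb, the 10 members held 129 to 141 CPM per kb in control cells and 249.5 to 278 with esculetin. Spred1 remained the largest contributor, at 50.8% to 60.5%, whereas the share of Dusp4 went from 23.9% to 29.1% in the controls to 18.6% to 21.8% with esculetin. The members together took 0.0757% to 0.0873% of all counts in the control libraries and 0.145% to 0.147% in the esculetin libraries. The macrophage marker list moved in the same libraries: 5 of its 7 genes were called higher, beside 28.7% of all tested genes, and 0 lower. Its sum went from 2323 to 2489 CPM in the controls to 5039 to 7597 CPM with esculetin. Most of this rise came from Lyz2 (mean 638 to 3496 CPM) and Csf1r (848 to 1654 CPM). Ptprc alone had a negative log2 fold change (-0.27), which was not called. The part of the macrophage marker shift in the members' changes was not tested.

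**Figure D2:**
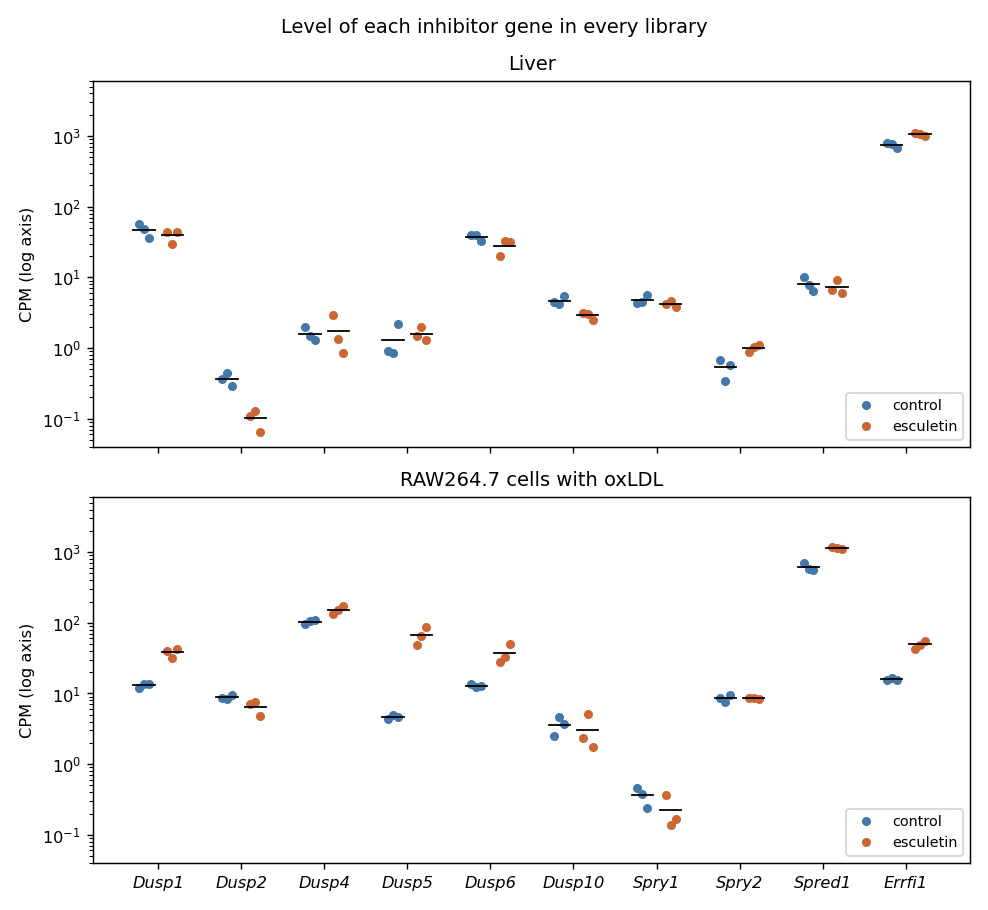
CPM of each member in every library (log axis), liver above and RAW264.7 cells below; points are libraries, 3 per group, and black bars are group means. In the cells, Dusp1, Dusp4, Dusp5, Dusp6, Spred1 and Errfi1 were higher in all esculetin libraries, and in the liver Errfi1 separated upward (682 to 798 against 1009 to 1115 CPM).

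In the liver, 0 of 9 tested members were called by edgeR, 0 by limma-voom and 1 by DESeq2 (Errfi1), and 3 of 9 (Dusp6, Dusp10 and Errfi1) had an unadjusted p below 0.05, beside 8.37% of all liver genes. The groups did not overlap for 4 of 9 members, beside 14.5% of all liver genes: Errfi1 and Spry2 were higher and Dusp6 and Dusp10 lower in the esculetin libraries. Spry2 entered this count only through the esculetin group, in which it was higher, since its control libraries alone would not have passed the filter on low counts. The members' median log2 fold change was -0.17, beside -0.02 for all tested genes. In whole liver, fewer cells of a type and less RNA per cell cannot be told apart.

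Errfi1, the dominant liver member, was measured at 798, 768 and 682 CPM with vehicle and at 1115, 1065 and 1009 CPM with esculetin. All esculetin libraries lay above all controls. The fold change was 1.42 (log2 0.50, SE 0.13, 95% interval 0.23 to 0.78), with an unadjusted p of 0.00163 and an adjusted p of 0.244 in edgeR. The call changed with the method: Errfi1 passed with DESeq2 (adjusted p = 0.00893) and in edgeR without a filter on low counts (adjusted p = 0.0285), and over the alternatives the adjusted p ran up to 0.806. Its share of the members' summed level per kb was 87.0% to 88.9% with esculetin, and that sum went from 140 to 168 CPM per kb to 196 to 212.

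Dusp6 was measured at 40.2, 39.8 and 32.9 CPM with vehicle and at 20.3, 32.3 and 31.7 CPM with esculetin, so that the highest esculetin library came close to the lowest control. The log2 fold change was -0.42 (SE 0.17, edgeR adjusted p = 0.545), and it was -0.25 without esculetin library 1. Dusp10 separated more clearly, with 4.48, 4.14 and 5.36 CPM against 3.16, 2.99 and 2.52 CPM. Its log2 fold change of -0.68 (SE 0.23) did not pass the adjustment either (edgeR adjusted p = 0.454).

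Dusp1 overlapped between the liver groups, at 56.8, 48.4 and 35.6 CPM with vehicle and 44.5, 29.6 and 43.5 CPM with esculetin. The log2 fold change was -0.26 with a 95% interval from -0.67 to 0.15, so a rise of the size measured in the cells lay outside this interval. The estimate was -0.10 without control library 1, -0.11 without esculetin library 2 and -0.44 without control library 3. Dusp4 (1.97, 1.48 and 1.28 against 2.94, 1.36 and 0.841 CPM) and Dusp5 (0.921, 0.839 and 2.16 against 1.47, 2.01 and 1.29 CPM) were low and overlapped, and the log2 fold change of Dusp5, 0.29, ran from 0.042 to 0.83 when single libraries were left out. The estimate for Dusp4 changed sign without esculetin library 1, from a log2 fold change of 0.15 to -0.52, and the adjusted p-values of both genes were 0.947 and 0.880 in edgeR. Dusp2 was close to the limit of detection, with 6, 9 and 5 counts against 2, 2 and 1, and was not tested in the liver.

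Among the upstream brakes in the liver, Spry2 was scarce and was measured at 0.676, 0.345 and 0.583 CPM with vehicle and at 0.872, 1.04 and 1.10 CPM with esculetin. It stood on 7 to 17 counts per library and passed the low-count filter only through the esculetin group. The log2 fold change of 0.91 had a 95% interval from -0.0054 to 1.83 (edgeR adjusted p = 0.598). Spry1 (4.30, 4.44 and 5.65 against 4.14, 4.68 and 3.82 CPM) and Spred1 (10.3, 7.75 and 6.35 against 6.54, 9.09 and 6.08 CPM) overlapped between the groups. Neither passed edgeR's test, at log2 fold changes of -0.19 (adjusted p = 0.848) and -0.17 (adjusted p = 0.873), and Spred1 stood at 0.036 without control library 1.

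Some marker lists of liver cell types also shifted a little between the groups. The 5 stellate and fibroblast markers summed to 153 to 157 CPM with vehicle and 127 to 143 CPM with esculetin. The 4 neutrophil markers, of which Ly6g had no counts, summed to 2.56 to 2.83 and 1.85 to 2.34 CPM. Of these 4, 3 were below 1 CPM in every liver library. The only tested neutrophil marker, Csf3r, had a log2 fold change of -0.05. The 7 macrophage markers (148 to 189 against 151 to 162 CPM), the 5 Kupffer cell markers (281 to 328 against 258 to 295 CPM), the 5 endothelial markers (157 to 176 against 170 to 173 CPM) and the 5 hepatocyte markers (107300 to 125090 against 95793 to 121130 CPM) overlapped, as did the lymphocyte and cholangiocyte lists. Lyz2 made up much of the macrophage sum, and the other 5 tested macrophage markers all had negative log2 fold changes, with Cd68 at -0.50 and Csf1r at -0.28 (unadjusted p = 0.0119 and 0.0284 in edgeR) and a list median of -0.31. None of these marker genes was called in the liver by edgeR, limma-voom or DESeq2, and their part in the members' values was not tested.

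**Figure D3:**
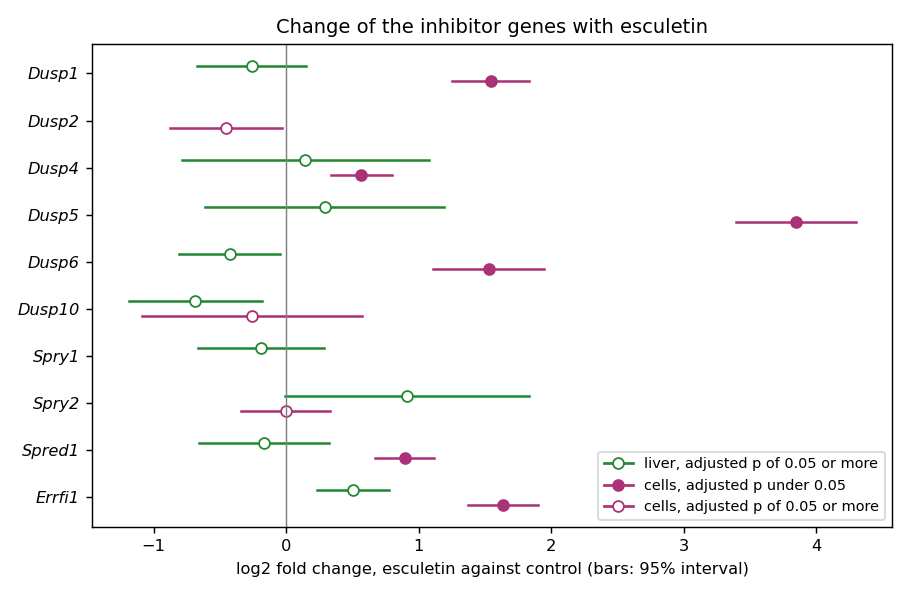
Log2 fold change of each member with esculetin in the liver (green) and in the cells (purple), with 95% intervals from the edgeR fit; filled points have an adjusted p below 0.05. Dusp2 in the liver and Spry1 in the cells were not tested, and the 6 filled points, Dusp5 furthest right at 3.85, all belong to the cells.

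The esculetin effect was then compared between the cells and the liver in a joint edgeR model of all 12 libraries. It was larger in the cells for 5 of 10 members, beside 27.1% of all 15709 genes tested for this difference in either direction. The difference in log2 fold change, cells minus liver, was 3.50 for Dusp5 (SE 0.45, adjusted p = 4.2e-05), 1.91 for Dusp6 (SE 0.28, adjusted p = 0.000131) and 1.76 for Dusp1 (SE 0.26, adjusted p = 0.000126). Dusp6 and Dusp1 had negative estimates in the liver, which were not called, and rose in the cells. For Errfi1, whose positive estimate in the liver was not called, the difference was 1.09 (SE 0.17, adjusted p = 0.000214), and for Spred1 it was 1.02 (SE 0.24, adjusted p = 0.00432). Dusp4, although called in the cells, did not differ detectably in response: the difference was 0.35 with a 95% interval from -0.46 to 1.17 (adjusted p = 0.556), on a low liver level. The remaining differences were 0.38 for Dusp10, -0.56 for Spry1, -0.97 for Spry2 and 1.34 for Dusp2, with adjusted p-values of 0.614, 0.501, 0.0748 and 0.122. Those for Dusp2 and Spry1 rest on libraries with 9 counts or fewer on one side. Tissue, route, dose, exposure time, vehicle and diet all differ between the experiments and cannot be told apart.

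Other genes of the network show how far the members' pattern extended in the cells. Among the other MAP kinase phosphatases, 0 of 3 tested genes rose and 1 fell, Dusp16, a phosphatase of JNK and p38 (log2 -0.37, SE 0.10, edgeR adjusted p = 0.00742). Of 8 tested atypical dual-specificity phosphatases, which lack the kinase-binding domain of the classical ones, 1 rose (Dusp3, log2 0.39) and 3 fell (Dusp11, -0.74, Dusp14, -0.72, and Dusp18, -0.29). Of the 2 other Sprouty and Spred genes tested, Spred3 rose (log2 0.75, edgeR adjusted p = 0.000919) and Spred2 missed the threshold (0.11, adjusted p = 0.255).

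The other brakes on RAS and receptors divided evenly, with 2 of 7 tested genes called higher and 2 lower. Rasa1 and Rasa2, which accelerate the hydrolysis of GTP by RAS, rose by log2 1.74 and 1.54. Pebp1 and Rasa3 had log2 fold changes of -0.80 and -0.21. The kinases of the ERK cascade also moved both ways, 6 of 17 higher and 4 lower, a share close to the 57.7% called over all genes of the cells. Map2k1 (MEK) and Araf rose with log2 fold changes of 0.95 and 0.82, as did the ribosomal S6 kinase gene Rps6ka3 with 0.75, whereas Rps6ka1 fell by 0.65 on the log2 scale. In the p38 and JNK cascade 4 of 13 were higher and 4 lower, with Map2k4 at 0.76, the JNK genes Mapk8 at 0.50 and Mapk9 at 0.49, and the p38 substrate kinase Mapkapk2 at -0.44.

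Genes that ERK is known to induce also moved in both directions. Of 5 tested genes of ERK transcriptional output, 3 rose. The ETS factor gene Etv4, scarce in control cells, went from 0.690 ± 0.326 to 3.77 ± 0.582 CPM (SD, n = 3, log2 2.44). Phlda1, also low in control cells at 1.19 CPM, rose by log2 1.47, and the cyclin gene Ccnd1 by log2 0.91. A further ETS factor gene, Etv5, fell, with a log2 fold change of -0.52. All 11 listed immediate early genes were called higher after these 24 h, beside 28.7% of all tested genes. Their median log2 fold change was 2.22. Such genes are typically transcribed within minutes of kinase activation without new protein synthesis. Fos went from 5.68 ± 0.910 to 42.7 ± 3.78 CPM (log2 2.91) and Jun from 43.3 ± 2.19 to 217 ± 37.5 CPM (log2 2.32), while Egr1 and Junb had log2 fold changes of 4.92 and 1.53. Because Dusp1 is also a target of the glucocorticoid receptor, 7 glucocorticoid-responsive genes were listed beside it. In the cells 2 of 7 rose, among them Zfp36 (log2 1.07), which encodes an mRNA-destabilizing protein that is also induced by MAP kinases, and 5 fell, with Tsc22d3 (-1.53), Per1 (-1.13) and Ddit4 (-0.68) having the smallest p-values among them.

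In the liver 0 genes of these lists were called by edgeR and 0 by limma-voom, whereas DESeq2 called Egr1 as lower and Ddit4 as higher. Without the filter on low counts, edgeR called 339 liver genes. Among them were 4 of 11 immediate early genes (1 higher, 3 lower) and 3 of 7 glucocorticoid-responsive genes, all 3 higher. Phlda1 (higher) and Epha2 (lower) of the ERK output were also called. With a replicate block, edgeR called Egr1 and Junb lower and Tsc22d3, Per1, Ddit4 and Phlda1 higher, although the numbers were not found to pair the samples. The 8 tested immediate early genes had a median log2 fold change of -0.71. Of these, 3 of 8 had an unadjusted p below 0.05 in edgeR, beside 8.37% of all liver genes. Egr1 stood at 15.9 ± 10.3 CPM with vehicle and 3.92 ± 0.515 CPM with esculetin (SD, n = 3; log2 -2.02, edgeR adjusted p = 0.0839), and Junb at 18.5 ± 1.93 and 11.1 ± 2.88 CPM (log2 -0.74, edgeR adjusted p = 0.271). The 7 glucocorticoid-responsive genes had a positive median of 0.27, and 4 of 7 had an unadjusted p below 0.05, beside the same 8.37%. Ddit4, an inhibitor of mTOR signalling, stood at 7.43 ± 3.19 and 17.02 ± 5.13 CPM (log2 1.19, edgeR adjusted p = 0.244), and Tsc22d3 had a log2 fold change of 0.73. In the 7 remaining lists, the genes of smallest p were Dusp16 (log2 -0.24) and Dusp7 (-0.11), Dusp11 (-0.35) and Dusp22 (0.25), Spred2 (-0.09) and Spry4 (-0.03), Cblb (-0.70) and Rasa2 (-0.74), Rps6ka1 (-0.23) and Hras (0.18), Map3k1 (-0.48) and Mapk8 (-0.37), and Epha2 (-0.57) and Ccnd1 (-0.32). Their edgeR adjusted p-values were 0.556 or more.

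**Figure D4:**
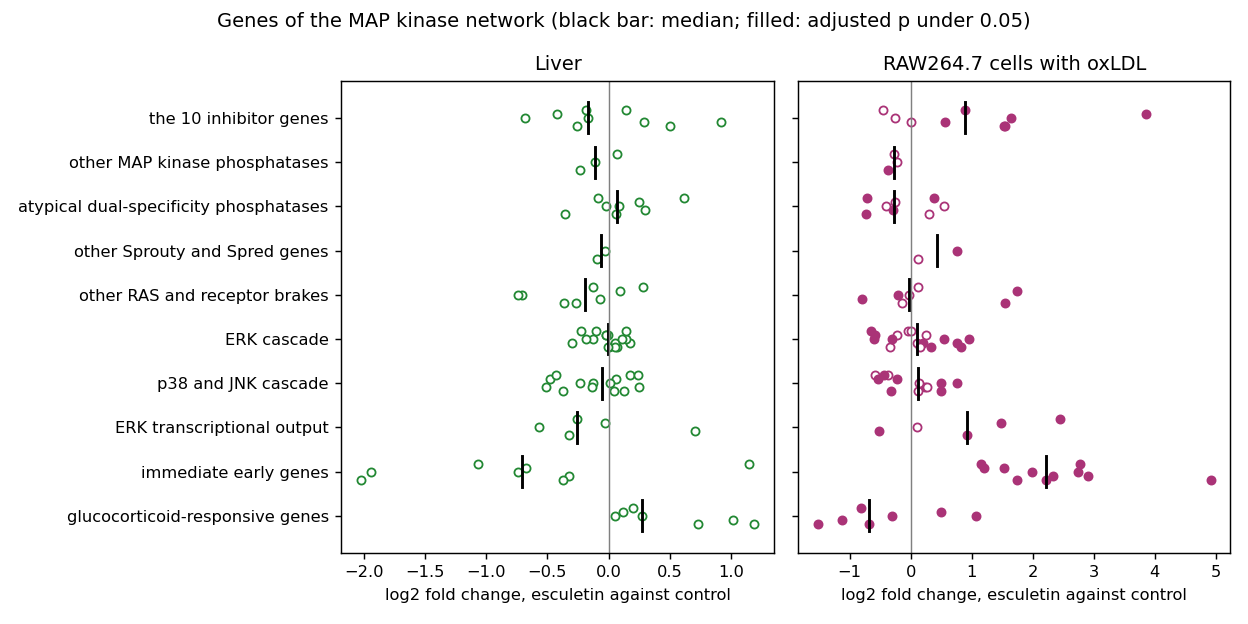
Log2 fold change with esculetin of each tested gene in the 10 lists, liver at the left and cells at the right, on different horizontal scales; black bars are list medians and filled points have an adjusted p below 0.05. In the cells the members (median 0.89) and the immediate early genes (median 2.22) lie mostly to the right of 0, whereas in the liver no point is filled.

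The response between cells and liver differed for 9 of 11 immediate early genes, beside 27.1% of all genes, all in the direction of the cells. The log2 difference was 6.90 for Egr1, 2.22 for Junb and 2.66 for Jun (edgeR adjusted p = 1.42e-07, 3.04e-06 and 4.93e-06). Of these 9 genes, Egr2 and Egr3 did not pass the low-count filter in the liver. Fos, Fosb and Ier3 were also low there, at 2.01, 0.839 and 0.896 CPM with vehicle. The response differed for 5 of 7 glucocorticoid-responsive genes, 1 higher and 4 lower in the cells relative to the liver. Tsc22d3 (-2.30), Per1 (-2.17) and Ddit4 (-1.91) had edgeR adjusted p-values of 0.00015, 0.000938 and 0.00107 for this difference. Among the cascade kinases the difference was called for 4 of 17 genes of the ERK chain and for 5 of 14 of the p38 and JNK chain, in both directions, shares that lie near the 27.1% over all genes.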

How the data were processed

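RNA was extracted with Trizol, prepared with the NEBNext Ultra kit and sequenced (Illumina NovaSeq) with paired ends. Per the labels and the study's methods, the authors aligned reads with HISAT 2.2.1 to GRCm39 (the processing notes also list mm10) and deposited raw counts per gene from featureCounts. Strand use, multimapping reads and the annotation release are not given in the sources used here. Exons of 8 of the 10 members overlap a gene on the opposite strand. Of the 5 such neighbours in the tables, Ergic1 (38 bases shared with Dusp1) had up to 2283 counts, and the others at most 27, so reads there could be assigned to either gene.

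Symbols, exon lengths and promoters came from GENCODE M39 on GRCm39, which matched 54749 identifiers. Counts were tested in R 4.3.3 with edgeR 4.0.16 (filterByExpr, TMM, quasi-likelihood, treatment only) in each table, and in a 4-group model for cells minus liver, with Benjamini-Hochberg adjustment over all tested genes. DESeq2 1.42.0 and limma 3.58.1 were alternatives. SE and 95% intervals came from the quasi-likelihood fit. With 3 libraries per group, the smallest two-sided p of an exact permutation test is 0.1. P-values measure the spread between libraries: pools of mice in the liver, and in the cells samples that nothing says were separate cultures. Tables and figures were made with Python 3.11.15, pandas 2.3.3 and matplotlib 3.10.9. The fit was tested on simulated data.

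The members and lists were chosen with earlier results of these data known, and lists were compiled by hand. All 10 members were named in every library. In each other list up to 4 called genes of smallest p were named per comparison, or up to 2 where none was called, and markers were given as sums. Genes named for the difference between cells and liver are those of smallest p in the 2 lists discussed there.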

Additional observations from a re-analysis of the deposited data

Results flagged for a closer look

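The effect of esculetin differed between the cells and the liver for 5 members, by the test of the difference itself in the joint edgeR model. The log2 fold change in the cells minus that in the liver was 1.76 for Dusp1, 3.50 for Dusp5, 1.91 for Dusp6, 1.02 for Spred1 and 1.09 for Errfi1. For Errfi1 the estimates were 0.50 in the liver, where it was not called (edgeR adjusted p = 0.244), and 1.64 in the cells. For Dusp1 and Dusp6 the liver estimates were negative, at -0.26 and -0.42, neither of them called, and that of Dusp1 ran from -0.44 to -0.10 without single libraries. The liver and cell experiments differ in tissue, dose, route, time, vehicle and diet, which cannot be told apart. No group held enough libraries for a test of single outlying libraries.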

How the results depend on the processing

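In the cells the 6 members called higher remained so under all 16 alternatives, except Dusp4 in the 2 that also ask for a fold change above 1.5. All 5 members whose response differed between cells and liver remained called under all 21 alternatives of that fit, with Dusp4 as a sixth without liver esculetin library 1 (log2 1.10, adjusted p = 0.0242). Dusp2 in the cells passed as lower with library sizes alone (adjusted p = 0.0444), no filter (0.0368), limma-voom (0.0443), or without esculetin library 1 (0.0457) or 2 (0.0433).

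Liver counts of calls were the least stable. Against 11 genes, 0 were called with library sizes alone, 339 without a filter, 98 with DESeq2 and 499 with limma-voom at the study's criterion (unadjusted p below 0.05 and fold change above 1.5), and 0 to 31 without single libraries (0 without control 2, esculetin 1 or esculetin 3, and 31 without control 3). Of the members, 1 was called in the liver without a filter and 1 with DESeq2 (Errfi1 both times), 2 at the study's criterion (Dusp10, and Spry2, which passed the low-count filter only through its higher group), and 0 without any single library. In the cells 4841 genes passed with an added fold change above 1.5, and 5041 with limma-voom at the study's criterion. The paper itself reports fewer changed genes in these cells at that criterion, and the reason for this gap was not examined.

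Signs changed where estimates lay near 0. Over single libraries left out, the log2 fold change ran from -0.52 to 0.45 for Dusp4 and -0.37 to 0.036 for Spred1 in the liver, -0.84 to 0.041 for Dusp10 and -0.087 to 0.10 for Spry2 in the cells, and -0.18 to 0.68 for Dusp10 in the difference. Spry2 in the cells was also above 0 with RLE factors (0.0137), upper quartile factors (0.0017), at least 1 CPM in 3 libraries (0.0124), DESeq2 (0.0136) and limma-voom (0.0013, at either criterion).

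Pairing by replicate number was neither shown nor excluded. Deviations of same-numbered libraries correlated at -0.0053 to 0.14 in the liver and -0.0298 to 0.165 in the cells. Not every library correlated best with its own number, and 3 libraries per group are too few for these correlations to settle pairing. With a replicate block 123 genes were called in the liver, 7982 in the cells and 4512 for the difference. The members called were 0, 7 (Dusp2 added, adjusted p = 0.0492) and 5, and Spry2 in the cells stood at 0.0013.

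Depth limits Dusp2 and Spry2 in the liver and Spry1 in the cells, each with at most 17 counts per library. The cause of the changes was not tested.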
